A study of Caenorhabditis elegans with 2 samples.

Results

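The genes described here encode 8 C. elegans proteins that were grouped as a pathway around the transcription factor MEF-2. They are the salt-inducible kinase KIN-29, the class IIa histone deacetylase HDA-4, the CREB coactivator CRTC-1 and the CREB factor CRH-1. The others are the calcineurin subunits TAX-6 and CNB-1, and the calmodulin-dependent kinases CMK-1 and UNC-43. The 8 genes were chosen by name, for their role in the pathway, from the 19973 nuclear protein-coding genes of the Ensembl annotation. Earlier results of these data were known when they were chosen. MEF-2 was mapped by chromatin immunoprecipitation and sequencing (ChIP-seq) in entire larvae of the L1 stage, the earliest after hatching, of both sexes. The strain, OP301, carries unc-119(tm4063) III and the integrated transgene wgIs301, from which an eGFP fusion of MEF-2 is made, so the values are those of a tagged transgenic protein. The 2 biological replicates form 1 group, with no treatment, mutant or other stage to compare. Whole animals were used, so the lists do not say in which cells a site was occupied.

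In sensory neurons of C. elegans, KIN-29 phosphorylates HDA-4, and HDA-4 together with MEF-2 keeps chemoreceptor genes repressed. In mammals, salt-inducible kinases and calmodulin-dependent kinases send class IIa deacetylases and CRTC proteins out of the nucleus by phosphorylation, and calcineurin, a calcium-activated phosphatase, reverses such marks. CREB is the factor that CRTC proteins coactivate and that calmodulin-dependent kinases can phosphorylate. The genes were thus grouped as possible regulators and partners of the factor that was immunoprecipitated, in part by the roles of mammalian relatives. The question here is where the factor itself was listed along these genes.

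For each gene, every listed site from 5 kb upstream of the gene to 1 kb beyond its end was taken. A site is the point source of a peak, the position that the authors' caller marks within it. In 4 lists on ce11, sites were ranked by the caller's signal value, rank 1 being the strongest: the authors' thresholded list (832 sites, signal value 27.4 or more), the list of the pooled replicates (28182 sites) and those of replicate 1 (30000) and replicate 2 (16385). The last 3 are relaxed lists that hold background as well as peaks. The scale of the signal value is not stated, so it is compared only within a list, and a rank is always one in a list of the length just given. The depth of the libraries is unknown, because the lists give no read counts. With 1 group and no contrast, no test was made of any value.

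Of the 8 genes, 5 had a thresholded site (kin-29, hda-4, crtc-1, tax-6 and unc-43) and 3 had none (crh-1, cnb-1 and cmk-1). In the genome, 1505 of 19973 genes (7.54%) had a thresholded site in the same kind of window. The windows of the 8 genes were longer than most, with a median of 15.2 kb against 8.03 kb, and a longer window takes more sites. With the 5 kb upstream of the 5' end alone, a window of 1 length for every gene, 4 of the 8 genes had a thresholded site, against 6.05% of all genes. The 5 genes held 8 thresholded sites between them, 5 upstream of the gene and 3 in introns. For each of these 8 sites the nearest 5' end of a protein-coding gene was that of the pathway gene itself.

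The sequence around 5 of the sites is shown because each carries a point of the results. The site 313 bp upstream of kin-29 is the nearest to a 5' end. The site 2561 bp upstream of hda-4 is the strongest of all. The site 1040 bp inside hda-4 is the only one with the word TGACG. The sites 972 bp upstream of tax-6 and inside unc-43 were the ones that no replicate 2 entry overlapped. Each run gives the site and the 100 bp on either side of it, on the forward strand of ce11, from the reference genome WBcel235. Capitals mark 4 words on either strand: the CREB half-element TGACG, the purine repeat GAGAG, the dinucleotide repeat ACACACAC, and a palindrome, ATCGAT. Where copies of a word overlap, they run together.
kin-29, chrX:2852651-2852851: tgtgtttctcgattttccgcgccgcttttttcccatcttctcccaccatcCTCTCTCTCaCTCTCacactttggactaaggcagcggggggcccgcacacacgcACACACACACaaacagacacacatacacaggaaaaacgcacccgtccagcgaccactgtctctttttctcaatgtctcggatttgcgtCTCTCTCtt
hda-4 upstream, chrX:16726898-16727098: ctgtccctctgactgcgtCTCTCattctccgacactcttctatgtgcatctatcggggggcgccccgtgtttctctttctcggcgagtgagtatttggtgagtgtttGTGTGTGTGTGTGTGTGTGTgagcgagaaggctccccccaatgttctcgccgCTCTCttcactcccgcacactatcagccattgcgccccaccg
hda-4 intron, chrX:16730499-16730699: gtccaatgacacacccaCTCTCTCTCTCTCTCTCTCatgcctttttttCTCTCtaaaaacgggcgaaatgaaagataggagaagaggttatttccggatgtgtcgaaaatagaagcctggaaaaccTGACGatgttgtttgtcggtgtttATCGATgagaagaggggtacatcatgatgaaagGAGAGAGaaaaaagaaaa
tax-6 upstream, chrIV:10502472-10502672: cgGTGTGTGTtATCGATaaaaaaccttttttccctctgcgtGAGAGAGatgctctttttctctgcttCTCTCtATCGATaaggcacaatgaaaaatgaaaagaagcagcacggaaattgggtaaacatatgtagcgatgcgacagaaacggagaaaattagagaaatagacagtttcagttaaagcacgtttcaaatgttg
unc-43 intron, chrIV:10342196-10342396: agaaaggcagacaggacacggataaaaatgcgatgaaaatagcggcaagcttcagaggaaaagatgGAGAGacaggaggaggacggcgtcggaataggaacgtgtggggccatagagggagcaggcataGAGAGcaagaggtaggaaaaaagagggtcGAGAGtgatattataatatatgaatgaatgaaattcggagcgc

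The element that MEF2 proteins of other animals bind, the MEF2 element, was searched in its degenerate form of 10 bases within 100 bp of each site. It was found at 1 of the 8 thresholded sites, upstream of crtc-1, where it began 94 bp before the point source. Of all 806 nuclear thresholded sites, 40 (4.96%) held it. Within 50 bp it was found at none of the 8 sites, against 1.86% of all. With 1 mismatch allowed, 2 of the 8 sites held it, upstream of crtc-1 and 5576 bp inside hda-4, against 33.7% of all thresholded sites. The windows of the 8 genes as a whole contained 79 MEF2 elements, 0.487 per kb beside 0.385 per kb in the nuclear genome. Of these 79, 1 lay within 100 bp of a thresholded site and 6 within 100 bp of a pooled site. No background share is given for these counts, so they show neither association nor avoidance. Per kb, the elements ran from 0.272 at tax-6 to 0.670 at crtc-1, with 0.605 at cnb-1 and 0.592 at crh-1, whose window of 42.2 kb held 25.

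TGACG, the core of the cAMP response element that CREB proteins bind, was found at 1 of the 8 sites, 1040 bp inside hda-4, against 37.2% of all thresholded sites. The full element TGACGTCA was found at none of the 8, against 3.6% of all. The other 3 words were picked after the sequences had been seen, and their counts are a description only. All 8 sites held GAGAG, as did 69.4% of all thresholded sites. ACACACAC was found at 4 of the 8 sites, those upstream of kin-29, hda-4 and crtc-1 and that 972 bp upstream of tax-6, against 9.18% of all. ATCGAT stood at 2 of the 8, with 2 copies at the tax-6 site 972 bp upstream and 1 copy 1040 bp inside hda-4, against 9.18% of all. The share of G and C ran from 36.8% at the site 5576 bp inside hda-4 to 56.7% at those upstream of hda-4 and 2301 bp upstream of tax-6, with a median of 45.3% over the 806 sites.

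**Figure D1:**
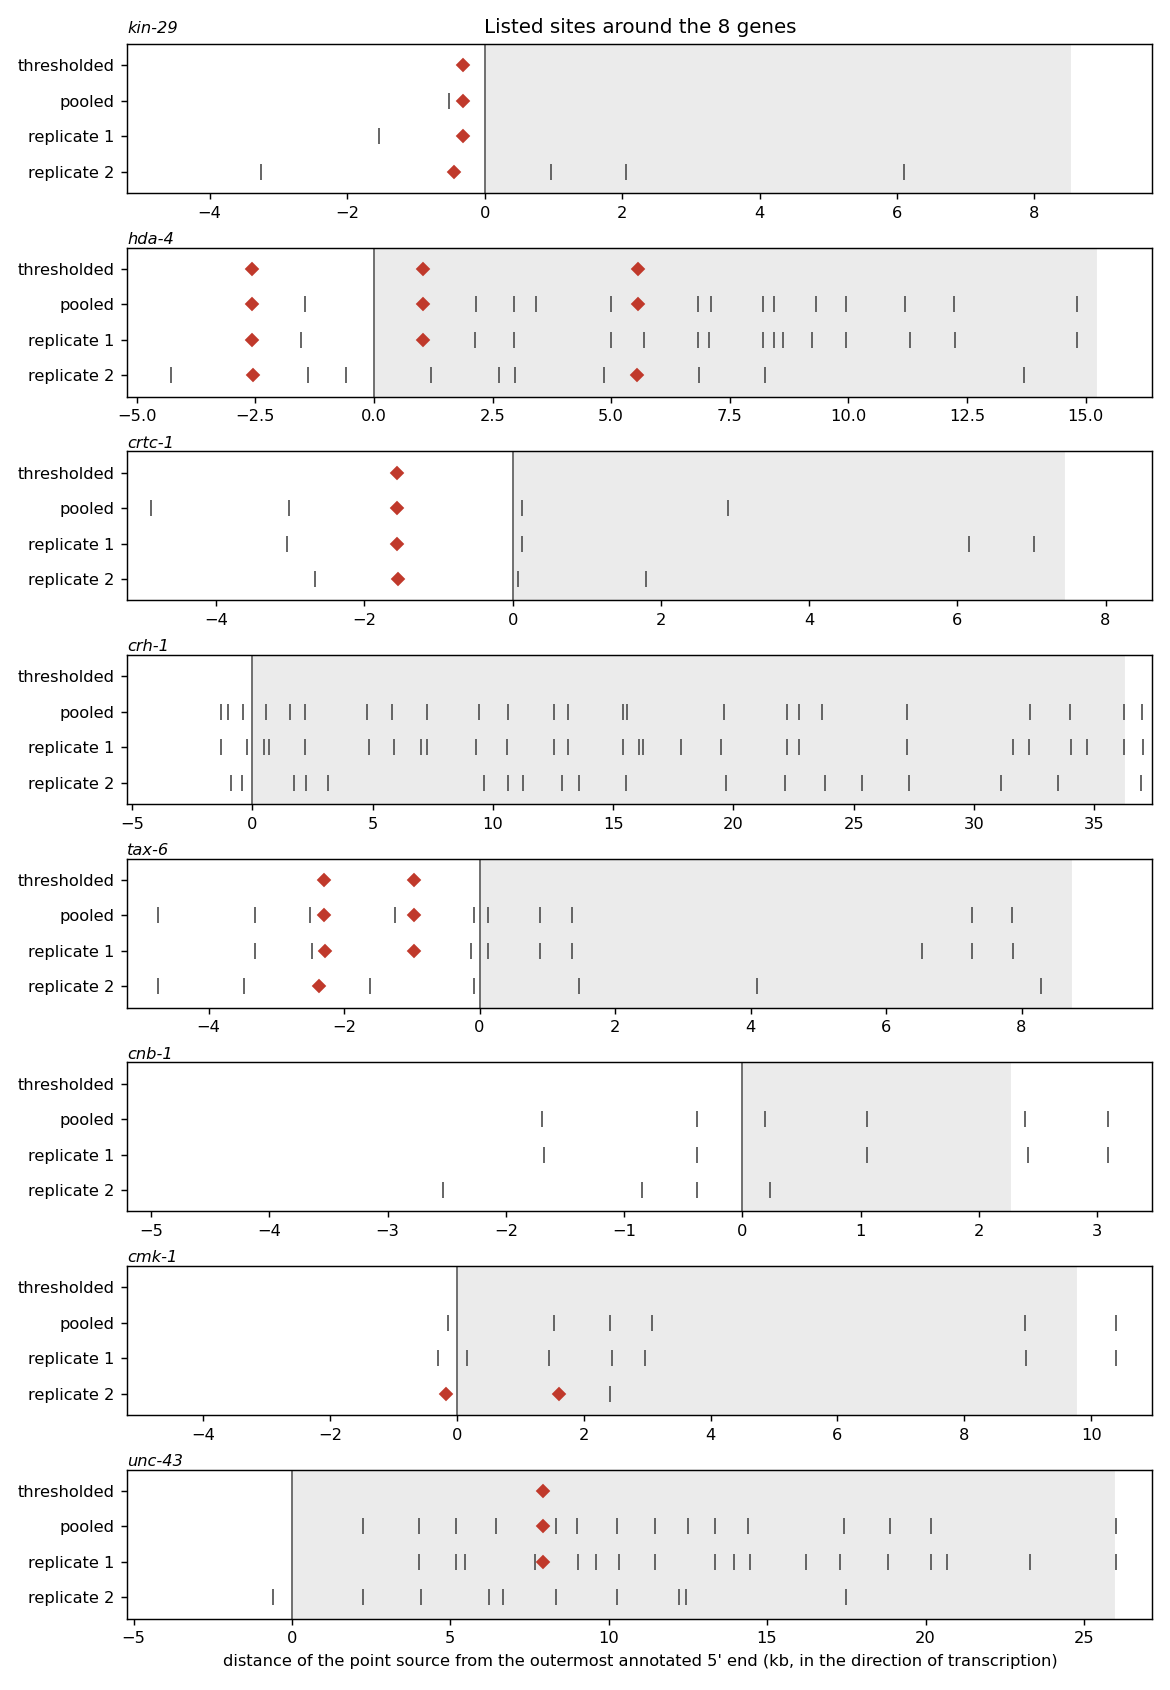
Positions of all listed sites from 5 kb upstream to 1 kb downstream of each of the 8 genes, 1 row per list; the horizontal axis is the distance in kb from the outermost annotated 5' end in the direction of transcription, the grey area is the gene, diamonds are sites among the 832 strongest of their list and bars are all other sites. Diamonds stand in the thresholded row of 5 genes, and in cmk-1 they stand only in the replicate 2 row.

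The kinase gene kin-29 had 1 thresholded site, just upstream of its start. The gene (WBGene00002210) lies on the reverse strand of chromosome X from 2843922 to 2852438, with 1 annotated transcript. The peak ran from 2852581 to 2852920, with its point source 313 bp upstream of the 5' end, and had a signal value of 32.4, at rank 566 of the thresholded list. RefSeq places the 5' end 82 bp further upstream. It had rank 588 in replicate 1 (signal value 23.3) and rank 529 in replicate 2 (10.9), with point sources 0 and 139 bp from that of the pooled data. It was thus among the 832 strongest sites of each replicate. The other pooled site, 515 bp upstream at rank 4396, overlaps the same replicate entries and is not separate evidence. In replicate 2, 4 further sites were listed, at ranks from 4176 to 15430, none of which overlapped an entry of replicate 1. No pooled site lay inside the gene.

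The deacetylase gene hda-4 carried the strongest site of the set and the most thresholded sites. It had 3, where 29 of all 19973 genes (0.145%) had at least 3. Its window of 21.2 kb was long beside the median of 8.03 kb over all genes, and length was not held equal. In the 5 kb upstream alone it had 1 thresholded site. The gene (WBGene00001837) runs from 16729559 to 16744767 on the forward strand of chromosome X, and its upstream neighbour among protein-coding genes ends 8888 bp away. The strongest peak, from 16726881 to 16727027, lay between genes, 2561 bp upstream of the 5' end. Its signal value of 103.7 put it at rank 23 of the thresholded list. It ranked 33 in replicate 1 (signal value 84.2) and 45 in replicate 2 (24.8), with point sources 11 and 17 bp from the pooled one. Both replicates therefore placed it within 1 short stretch and near the top of their lists.

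The other thresholded sites of hda-4 both lay in its longest stretch without an exon, 10.1 kb between the exon ending at 16729703 and the one starting at 16739817. The first, from 16730429 to 16730768, was 1040 bp downstream of the 5' end, with a signal value of 34.3 at rank 506. It ranked 376 in replicate 1 and 850 in replicate 2, just outside the 832 strongest there. The point sources of the replicates lay 3 and 169 bp from the pooled one. A non-coding RNA gene, T21F2.2, is annotated over the pooled point source but not over that of replicate 2. The second, from 16734965 to 16735304, was 5576 bp downstream of the 5' end, with a signal value of 28.6 at rank 747. Here the order of the replicates was the other way round, rank 1119 in replicate 1 and 622 in replicate 2. Their point sources lay 120 and 26 bp from the pooled one. Neither intronic site was thus among the 832 strongest of both replicates.

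This intron was also dense in weaker sites. It held 12 of the 17 pooled sites of hda-4. The strongest below the threshold lay 8206 bp downstream of the 5' end, 2070 bp upstream of the start of the shorter of the 2 transcripts, with a signal value of 23.4 at rank 1148 of the pooled list. It ranked 1421 in replicate 1 and 1290 in replicate 2, so both replicates listed it without either placing it among its 832 strongest. Of the 17 pooled sites, 10 overlapped an entry of both replicates, 6 of replicate 1 alone, 0 of replicate 2 alone and 1 of neither. The 10 are not all separate evidence. Those at ranks 1148 and 4564 overlap the same replicate 2 entry, as do those at ranks 8773 and 14628.

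Of the calcineurin genes, tax-6, for the catalytic subunit, had 2 thresholded sites, both upstream, and cnb-1, for the regulatory subunit, had none. The tax-6 gene (WBGene00006527) runs from 10492869 to 10501600 on the reverse strand of chromosome IV. Its stronger peak, from 10503731 to 10504070, lay 2301 bp upstream of the outermost 5' end, with a signal value of 40.2 at rank 331. It ranked 339 in replicate 1 (signal value 29.3) and 443 in replicate 2 (11.6). The point sources of the replicates lay 24 and 74 bp from the pooled one. The non-coding RNA gene C02F4.10 is annotated over the pooled point source but not over that of replicate 2.

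The weaker tax-6 peak, from 10502402 to 10502741, was 972 bp upstream, with a signal value of 28.4 at rank 756. Its rank was 506 in replicate 1 (signal value 24.7), but no entry of replicate 2 overlapped it, and the nearest replicate 2 site lay 648 bp away at rank 11046. Of all 806 nuclear thresholded peaks, 784 overlapped entries of both replicates and 21 those of replicate 1 alone. The tax-6 peak is among these 21, as is that of unc-43. The strongest pooled site within tax-6, 1363 bp downstream of the outermost 5' end, had a signal value of 13.3 at rank 3776, with ranks of 3565 and 2774 in replicates 1 and 2. Of the 12 pooled sites in the tax-6 window, 7 were upstream of the gene.

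The cnb-1 gene (WBGene00000554, chromosome V, 11375742 to 11378006, forward strand) had 6 pooled sites in the shortest of the 8 windows, 8.27 kb. The strongest, 382 bp upstream of the 5' end from 11375190 to 11375529, had a signal value of 15.8 at rank 2582 of the pooled list. It ranked 2487 in replicate 1 and 9641 in replicate 2. It is the only 1 of the 6 that overlapped entries of both replicates. In replicate 2, no cnb-1 site ranked above 8710. The signal value at cnb-1 was the lowest of the 8 genes, yet 80.5% of all protein-coding genes had a lower strongest pooled site or none.

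Of the calmodulin-dependent kinase genes, unc-43 had a site among the 832 strongest of replicate 1 and cmk-1 had such sites in replicate 2. The gene unc-43, for CaM kinase II, acts in neurons and muscle and has 25 annotated transcripts with 20 different starts. It lies on the reverse strand of chromosome IV from 10324254 to 10350217 (WBGene00006779). Its 1 thresholded peak, from 10342126 to 10342465, was 7921 bp downstream of the outermost 5' end, inside an intron of the longer transcripts. The same point is 1729 bp upstream of the nearest start of shorter transcripts. The signal value was 28.2, at rank 764. Replicate 1 had the same point source at rank 464 (signal value 25.9). Replicate 2 had no overlapping entry, and its nearest site lay 420 bp closer to the start of the shorter transcripts, at rank 915 (8.42). Replicate 2 thus had a site nearby, just outside its 832 strongest.

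The other 15 pooled sites of unc-43 were weaker. The strongest of them, 3998 bp downstream of the outermost 5' end, had a signal value of 18.9 at rank 1756, and ranked 1866 and 3459 in replicates 1 and 2. Of all 16 pooled sites, 14 were in introns, 1 in a coding exon and 1 downstream of the gene, and none lay in the 5 kb upstream. In total 3 of the 16 overlapped entries of both replicates.

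The gene cmk-1, for CaM kinase I, had no thresholded site, but in replicate 2 it had 2 sites among the 832 strongest. The gene (WBGene00000553) runs from 1824481 to 1834247 on the forward strand of chromosome IV. The pooled peak at its 5' end, from 1824167 to 1824506, was 144 bp upstream, with a signal value of 19.8 at rank 1610. Its rank was 493 in replicate 2 (signal value 11.1) and 4883 in replicate 1 (10.3). A pooled site in an intron, 1534 bp downstream of the 5' end, had a signal value of 19.4 at rank 1670, with rank 356 in replicate 2 (12.8) and 8657 in replicate 1 (8.44). Another site, 2413 bp downstream, had a signal value of 14.8 at rank 2944, with ranks of 1314 in replicate 2 and 3864 in replicate 1. All 3 sites overlapped entries of both replicates, whose lists differ in length (30000 and 16385 sites).

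Of the CREB genes, crtc-1 had a thresholded site and crh-1 had none. The gene crtc-1, for the coactivator, had 1 strong site. It runs from 2026316 to 2033748 on the forward strand of chromosome I (WBGene00021237). The peak, from 2024585 to 2024924, was 1561 bp upstream of the 5' end, with a signal value of 53.4 at rank 151 of the thresholded list. It ranked 279 in replicate 1 (signal value 31.6) and 190 in replicate 2 (16.1), with point sources 1 and 15 bp from the pooled one. No other thresholded site lay within 150818 bp of it. The remaining 4 pooled sites of crtc-1 had signal values of at most 8.83, at ranks from 10901 to 20601, so the window held 1 strong site and otherwise weak ones.

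The CREB gene crh-1 had the longest window, 42.2 kb, and many weak sites. It runs from 11657767 to 11693981 on the forward strand of chromosome III (WBGene00000793), with 7 annotated transcripts that have 7 different starts. None of its 24 pooled sites was thresholded. The strongest, from 11684826 to 11685165, lay in an intron 27229 bp downstream of the outermost 5' end and 2034 bp downstream of the nearest transcript start. Its signal value of 25.7, at rank 928, was just under the lowest thresholded value of 27.4. It ranked 1005 in replicate 1 (signal value 18.8) and 3107 in replicate 2 (4.65).

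At the outermost 5' end of crh-1, a pooled site 394 bp upstream had a signal value of 14.6 at rank 3033, with ranks of 3690 and 8625 in replicates 1 and 2. In replicate 2 the highest rank in the window was 1559, at a site 3130 bp downstream of the 5' end that no replicate 1 entry overlapped. Of the 24 pooled sites, 19 were in introns, 3 upstream and 2 downstream, and 12 overlapped entries of both replicates.

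**Figure D2:**
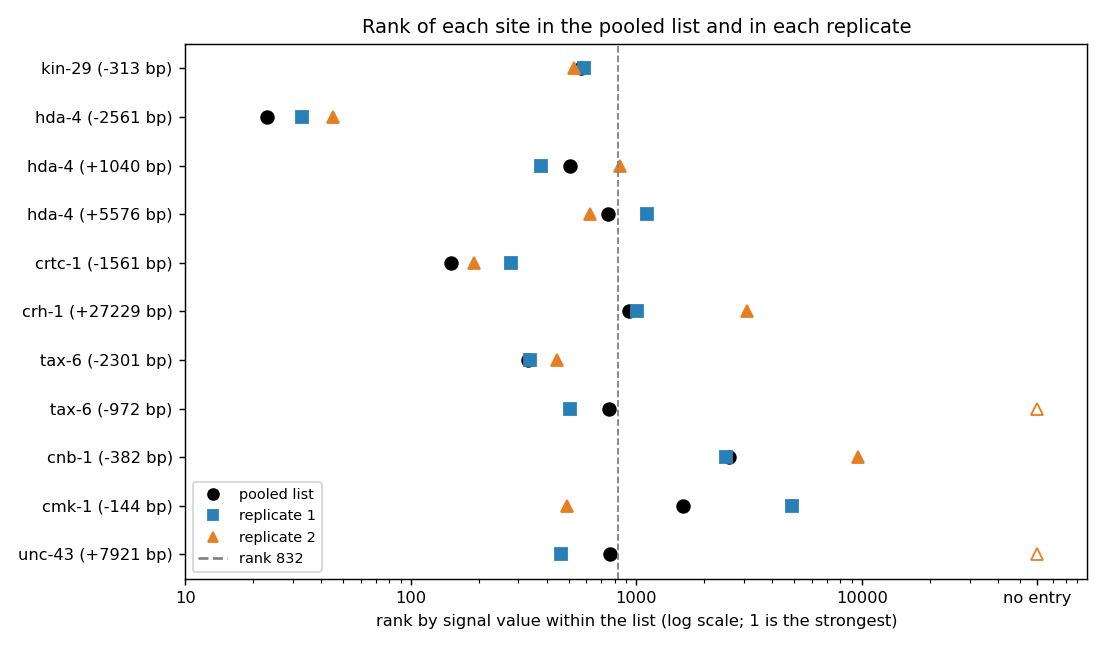
Rank by signal value (log axis, 1 is the strongest) in the pooled list, replicate 1 and replicate 2 for the 8 thresholded sites and for the strongest pooled site of crh-1, cnb-1 and cmk-1; each row names the gene and the distance of the site from the outermost 5' end, the dashed line is rank 832, and open markers on the right mean that no entry overlaps. The site 2561 bp upstream of hda-4 ranks 23, 33 and 45, while the sites at tax-6 (-972 bp) and unc-43 have no replicate 2 entry.

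Set side by side, 4 of the 8 thresholded sites were among the 832 strongest of both replicates: those upstream of kin-29 and crtc-1, the strongest of hda-4 and the stronger of tax-6. All 4 lay upstream of the gene, between 313 and 2561 bp from the 5' end. Where such sites lie over the whole thresholded list was not counted. Of the other 4, the site 1040 bp inside hda-4 and those at tax-6 (972 bp upstream) and unc-43 were among the strongest of replicate 1 alone, and the site 5576 bp inside hda-4 among those of replicate 2 alone. Over all 806 nuclear thresholded sites, 51.6% held such a place in both replicates, 29.9% in replicate 1 alone, 15.4% in replicate 2 alone and 3.1% in neither, so 4 of 8 is near the share of the whole list. In all, 6 of the 8 (75.0%) overlapped an entry of both relaxed lists, against 97.3% of the nuclear thresholded peaks.

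The windows of the 8 genes as a whole held more listed sites per length than the genome. In the pooled list they had 88 sites in 162.1 kb, 0.543 per kb against 0.281 per kb over the nuclear genome. Replicate 1 had 93 sites (0.574 per kb against 0.299) and replicate 2 had 65 (0.401 against 0.163). Among single genes the pooled density ran from 0.138 per kb at kin-29 to 0.802 at hda-4 and 0.815 at tax-6. The gene kin-29 was the only 1 of the 8 below the genome's density in the pooled list and in replicate 1, and no gene was below it in replicate 2. For thresholded sites the density was 49.4 per Mb of window, against 9.24 per Mb over the windows of all protein-coding genes. Of the 88 pooled sites, 55 lay in introns, 20 upstream, 4 in coding exons, 3 in other parts of exons and 6 downstream. No background share is given for these places, so the counts show no preference. Entries of both replicates overlapped 39 of the 88 (44.3%), against 23.5% of all nuclear pooled sites. In both shares, neighbouring pooled sites that overlap the same replicate entry are each counted. The 88 sites were also stronger, with a median signal value of 9.15 against 7.98 over the pooled list. Neither strength nor the density of replicate entries was held equal in these shares.

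**Figure D3:**
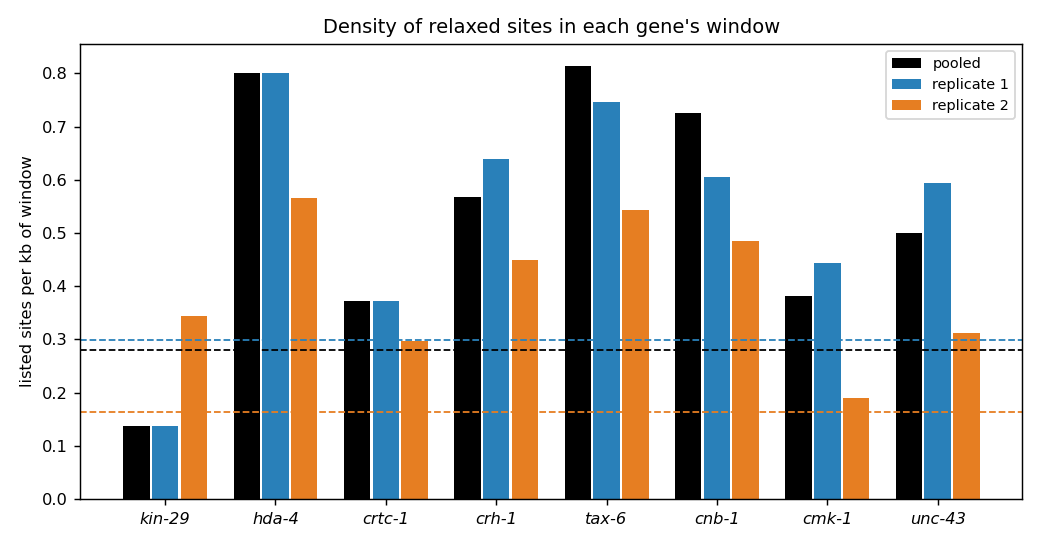
Listed sites per kb of window, from 5 kb upstream to 1 kb downstream, for each of the 8 genes in the pooled list and each replicate list; dashed lines in the same colours are the densities over the nuclear genome (0.281, 0.299 and 0.163 per kb). Only kin-29 falls below the pooled line, with 0.138 per kb.

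Each of the 8 genes had a strongest pooled site above the median of all genes. The median over the 8 was 30.3, against 10.3 over the 16801 protein-coding genes with a pooled site in their window. Counting genes without such a site as lower, the strongest site of hda-4 exceeded that of 99.9% of all genes, that of crtc-1 98.7%, tax-6 96.9%, kin-29 94.8%, unc-43 93.0%, crh-1 91.7%, cmk-1 86.6% and cnb-1 80.5%. Window length was not held equal in this order, and crh-1 and unc-43 have the longest windows of the 8.

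**Figure D4:**
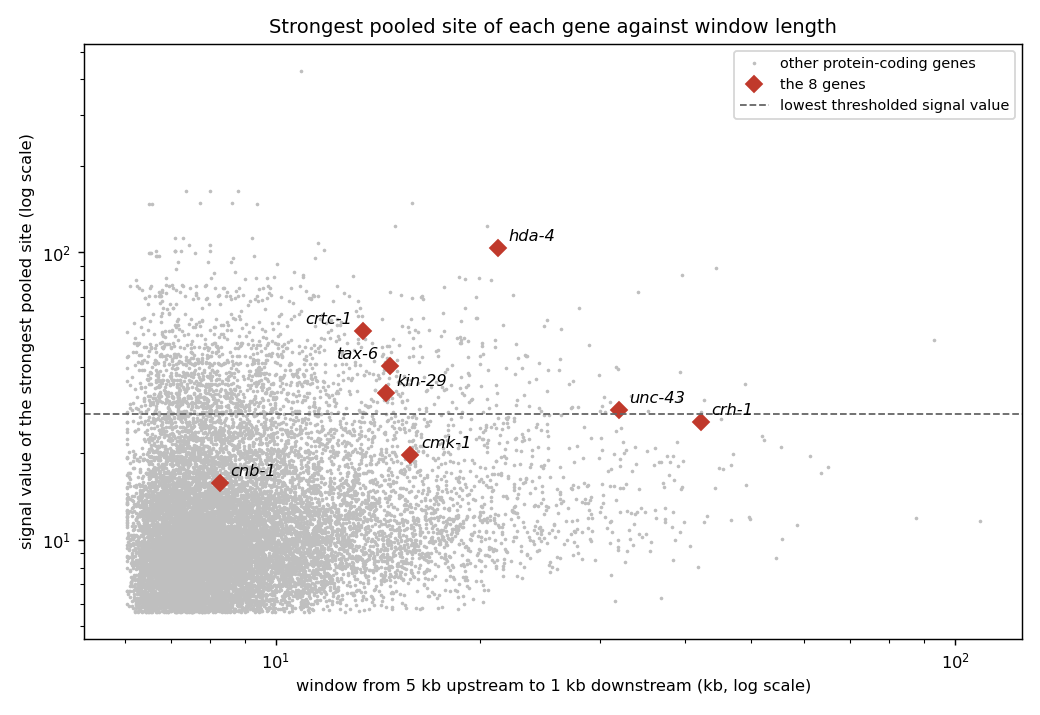
Signal value of the strongest pooled site in each gene's window against the length of the window (both axes log); grey points are protein-coding genes with a pooled site, diamonds are the 8 genes and the dashed line is the lowest thresholded value, 27.4. The points of hda-4, crtc-1, tax-6, kin-29 and unc-43 lie above the line, and crh-1 at 25.7, cmk-1 and cnb-1 below it.

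A wider list of 28 pathway genes, of which 27 matched a nuclear protein-coding gene, was read in the same way. It holds mef-2, upstream kinases, 14-3-3 proteins, other deacetylases, calcium channels and kinases of the p38 and ERK type. Of the 27 genes, 10 had a thresholded site, 16 sites in all, beside the 7.54% of all genes. The median window of the 27 was 13.2 kb. For these sites, unlike those of the 8 genes, the gene of the nearest 5' end is not given, so some may lie nearer to another gene. In mef-2 itself there were 4 thresholded sites. The strongest site of the whole list (signal value 428, rank 1) lay 1877 bp inside mef-2, and the others lay 3492 bp upstream, 219 bp upstream and 582 bp downstream of its 5' end. In that order, the 4 sites ranked 8, 41, 40 and 622 in replicate 1 and 1, 37, 1344 and 2748 in replicate 2. The strain also carries the transgene for the MEF-2 fusion. Whether mef-2 sequence in the transgene adds to these values was not tested and cannot be told from the lists.

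Of the genes that act directly on the 8, ckk-1, which encodes the kinase that activates CMK-1, had an intronic site 4531 bp downstream of its 5' end (signal value 32.8, rank 548). For cmd-1, calmodulin, a site lay 4771 bp upstream (69.5, rank 82), and for cbp-1, the CBP/p300 coactivator of CREB, one lay 915 bp upstream (58.6, rank 121). In aak-2, the AMP-activated kinase subunit that phosphorylates CRTC-1, an intronic site lay 949 bp downstream of the 5' end (64.03, rank 99). These sites ranked 544, 79, 148 and 151 in replicate 1 and 1270, 171, 99 and 49 in replicate 2, in the order of the genes. Those of cmd-1, cbp-1 and aak-2 were thus among the 832 strongest of both replicates.

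The remaining genes with a site were kin-1, hda-6, egl-19, mpk-1 and par-5. The gene kin-1, for the catalytic subunit of protein kinase A, had 4 intronic sites in a window of 44.5 kb, the strongest with a signal value of 88.6 at rank 36. From the strongest down, the 4 ranked 43, 64, 68 and 842 in replicate 1 and 42, 101, 1611 and 1307 in replicate 2. A site 3307 bp upstream of egl-19, the L-type calcium channel, had 43.3 (rank 272), and an intronic site of mpk-1, the ERK kinase, had 45.9 (rank 231). The site at the 5' end of hda-6 had 29.2 (rank 713). The site 156 bp upstream of par-5, a 14-3-3 protein gene, was the weakest in the thresholded list, with 27.4 at rank 832. No thresholded site was found for the other 17 genes: kin-2, the regulatory subunit of protein kinase A, the deacetylase genes hda-1, hda-2, hda-3 and hda-5, the 14-3-3 gene ftt-2, the kinase genes aak-1, par-4 and egl-4, the calcium channel genes unc-2 and cca-1, and tir-1, nsy-1, sek-1, pmk-1, pmk-2 and pmk-3 of the p38 cascade. The median of the strongest pooled site over the 27 genes was 16.8, against 30.3 over the 8 genes, and both lists were made with earlier results of these data known.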

How the data were processed

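ChIP-seq peak lists of eGFP-tagged MEF-2 in L1 larvae were used as deposited, 2 replicates in 1 group. By the deposited records, the relaxed lists came from the alignments and a further file that the control-normalised tracks also used, and the irreproducible discovery rate over the pooled and replicate lists gave the thresholded list. The caller, its version and the rate's limit were not given in the sources used here. The authors deposited, for each peak, a signal value in column 7, a −log10 q-value in column 9 and the point source in column 10. Ranking did not use the −log10 q-value, of which the thresholded list holds a single value. The 832 thresholded peaks are the 832 strongest of the pooled list. Lists on ce10 were not used here, since no coordinates were converted.

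Gene models were those of Ensembl release 115, and bases were read from the RefSeq genome WBcel235, which is ce11; every nuclear peak ended within its chromosome. A site is column 2 plus column 10, given 1-based. Windows ran from 5 kb upstream to 1 kb downstream, and overlap means at least 1 bp. Python 3.11.15, numpy 2.4.6, pandas 2.3.3 and matplotlib 3.10.9 were used. Window counts, overlaps and the element search were tested on simulated data.

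The 8 genes and the lists were chosen with earlier results of these data known. The text names these genes, genes of the wider list with a thresholded site, mef-2, and the gene of the nearest 5' end. T21F2.2, C02F4.10 and the 17 wider-list genes without a thresholded site fall outside this rule: they were added once their values were known. The name rcn-1 matched no annotated gene. Alternatives were other windows, list sizes, overlap rules, element forms and single replicates.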

Additional observations from a re-analysis of the deposited data

How the results depend on the processing

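The count of 5 genes with a thresholded site was 5 with a window from 2 kb upstream to the gene end (6 sites, 928 of all genes), 5 with each site given to the nearest 5' end only (8 sites, 669 of all genes) and 7 with the 1664 strongest pooled sites (11 sites, 2752 of all genes; crh-1 and cmk-1 were added). It was 2, with 2 sites, in the 1000 bp before and 200 bp after the 5' end (585 of all genes; kin-29 and tax-6) and 3, with 3 sites, with the 416 strongest thresholded sites (759 of all genes; hda-4, crtc-1 and tax-6). With the 5 kb upstream alone, chosen after the data had been seen, it was 4, with 5 sites (1208 of all genes). With the 832 strongest sites of 1 replicate in place of the thresholded list, the count was 5 and the sites 7 in either case (1453 to 1581 of all genes). The genes differed, since without replicate 1 cmk-1 had 2 such sites and unc-43 none, and without replicate 2 it was the reverse, with cmk-1 at 0 and unc-43 at 1. Sites in the relaxed lists numbered 65 to 93 in single replicates. The count of 39 pooled sites shared with both replicates was 30 with an overlap of at least 0.5 of the shorter entry and 26 with point sources within 150 bp.

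The MEF2 element was found at 1 of the 8 thresholded sites within 150 bp (7.94% of all), 0 within 50 bp (1.86%) and 2 with 1 mismatch (33.7%). TGACG was found at 2 within 150 bp (43.2% of all), and the full TGACGTCA at 0 (3.6%). Ranks by q-value could not order the thresholded sites, which are among 2093 pooled sites that share the highest value. So are the strongest sites of crh-1 and cmk-1, while that of cnb-1 ranked 2532 by q-value and 2582 by signal value. No paired analysis was possible because there is only 1 group and no test between groups. Depth is unknown, so no limit from it can be given.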
